A study of Mus musculus with 5 samples.

Results

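The 42 genes described here encode DNA repair and checkpoint proteins. They were chosen by name for their known function, with earlier results of these data known. They were sorted into 8 pathways, with each gene counted in 1 pathway. All 42 were found among the 23284 gene symbols of the count tables, and all 42 passed the filter on low counts that left 12703 genes to be tested. The RNA was polyA-selected RNA of mouse neural tubes, the embryonic tissue that gives rise to the brain and spinal cord, and it was sequenced to compare embryos without the erythropoietin receptor, EpoR, with controls. The samples were 2 wild type (EpoR+/+), 1 heterozygote (EpoR+/-) and 2 EpoR-null (EpoR-/-), labelled as embryonic day 8.5, a little earlier than the stage given in the methods of the study. The wild type and heterozygote samples served together as 3 controls. All embryos came from matings of EpoR+/- mice, so that EpoR-null embryos lacked the receptor in every tissue, blood and vessels included. Whether a sample was 1 embryo or a pool is not stated in the sources used here, so the p-values below refer to the spread between these samples. The tests estimate the spread of each gene with information shared over all genes.

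Dividing cells copy their genome in every S phase, and the neuroepithelium of the closing neural tube consists mostly of rapidly dividing progenitors. Double-strand breaks are sensed by the MRN complex (Mre11, Rad50 and Nbs1) and repaired either by homologous recombination, which copies the sister chromatid, or by non-homologous end joining, while the Fanconi anemia proteins unhook crosslinks between the strands at stalled forks. Base excision, mismatch and nucleotide excision repair remove damaged or mispaired bases from 1 strand, and checkpoint proteins hold the cell cycle until repair is done. Loss of many of these genes causes cell death in neural progenitors, small brain size or early embryonic lethality in mice.

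Promoter windows of 300 bases (250 before and 50 after the start of transcription) from RefSeq, on the mouse build GRCm38.p6, were found for 35 of the 42 genes. In 28 of the 35, the bases after the start matched the start of a GENCODE transcript. They were searched on both strands for 4 motifs of cell cycle and housekeeping promoters: E2F (TTTCCCGC, TTTGGCGC, TTTCGCGC or TTTCCCGG), the cell cycle homology region CHR (TTTGAA or TTCGAA), the CCAAT box, and NRF1 (GCATGCGC), where NRF1 means nuclear respiratory factor. The windows below are those of the genes with the lowest adjusted p-values in the comparison of EpoR-null with controls (Mdc1, Fanca and Brca2), of the lower gene with the most motif matches (Clspn) and of the only gene that was higher (Ercc1), so that they can be read beside those results. Capitals mark the motif matches. The windows lie at chr17:35841248-35841547 (plus strand) for Mdc1, chr8:123318527-123318826 (minus strand) for Fanca, chr5:150522371-150522670 (plus strand) for Brca2, chr4:126556730-126557029 (plus strand) for Clspn and chr7:19344821-19345120 (plus strand) for Ercc1.
Mdc1: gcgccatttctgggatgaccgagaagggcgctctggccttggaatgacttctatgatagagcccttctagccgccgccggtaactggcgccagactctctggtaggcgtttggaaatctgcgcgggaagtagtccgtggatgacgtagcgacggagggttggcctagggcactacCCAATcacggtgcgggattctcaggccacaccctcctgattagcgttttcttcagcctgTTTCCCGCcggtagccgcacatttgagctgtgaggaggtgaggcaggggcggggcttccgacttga
Fanca: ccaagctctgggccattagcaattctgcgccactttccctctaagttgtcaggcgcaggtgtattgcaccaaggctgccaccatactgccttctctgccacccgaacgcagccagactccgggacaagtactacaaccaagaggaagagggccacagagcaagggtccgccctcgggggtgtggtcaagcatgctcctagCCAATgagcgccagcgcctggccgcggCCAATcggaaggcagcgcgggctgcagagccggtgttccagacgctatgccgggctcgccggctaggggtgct
Brca2: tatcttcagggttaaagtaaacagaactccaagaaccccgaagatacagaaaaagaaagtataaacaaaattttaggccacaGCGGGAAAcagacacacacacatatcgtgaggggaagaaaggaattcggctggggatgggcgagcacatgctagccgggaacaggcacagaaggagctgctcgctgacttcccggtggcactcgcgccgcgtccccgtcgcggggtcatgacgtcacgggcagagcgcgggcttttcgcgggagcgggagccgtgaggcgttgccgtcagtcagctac
Clspn: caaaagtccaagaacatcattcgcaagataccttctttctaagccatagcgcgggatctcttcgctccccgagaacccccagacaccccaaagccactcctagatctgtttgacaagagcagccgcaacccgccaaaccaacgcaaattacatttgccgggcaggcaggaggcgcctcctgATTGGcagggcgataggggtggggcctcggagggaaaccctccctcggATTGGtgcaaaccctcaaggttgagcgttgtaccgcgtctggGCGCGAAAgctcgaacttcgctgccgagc
Ercc1: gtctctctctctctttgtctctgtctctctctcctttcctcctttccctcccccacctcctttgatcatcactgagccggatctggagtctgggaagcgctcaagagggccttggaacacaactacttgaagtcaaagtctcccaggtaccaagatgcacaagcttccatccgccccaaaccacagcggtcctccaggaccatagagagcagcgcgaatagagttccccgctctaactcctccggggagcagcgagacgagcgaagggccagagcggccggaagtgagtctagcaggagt

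With positions counted from the start of transcription as 0, the Mdc1 window held TTTCCCGC at -16 and a CCAAT box at -75. Clspn held the E2F letters in reverse, GCGCGAAA, at 21 and CCAAT boxes in reverse at -69 and -21. Brca2 held GCGGGAAA, again in reverse, at -168. Fanca held CCAAT boxes at -50 and -23 and no E2F letters, and Ercc1 held none of the 4 motifs. The Ercc1 window lies wholly inside the annotated span of the gene given below, so bases before that span were not searched. Over the 35 windows, E2F letters stood in 8 (22.9%), against 5.84% of the first windows of 9913 tested genes and 3.07% of all 32851 windows. CCAAT boxes stood in 21 (60%), against 39.1% of tested genes, NRF1 letters in 6 (17.1%, against 5.73%), and CHR letters in 2 (5.71%, against 13.2%). Of the 8 genes with a window that were lower in EpoR-null, 4 held E2F letters (Brca2, Clspn, Mdc1 and Topbp1), and so did 4 of the 26 genes that did not pass the test. A match of letters is a description of the sequence and not a bound site.

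Reads counted on genes came to between 19316126 and 41169218 per sample, so that 3 reads were worth 0.0729 to 0.155 CPM, the count scaled to library size in which all levels below are given. No pair of samples agreed within sampling noise. Epor itself was at 2.35 and 1.62 CPM in wild type replicates 1 and 2, 0.476 CPM in the heterozygote-labelled library, and 0.354 and 0.669 CPM in EpoR-null replicates 1 and 2. The heterozygote-labelled library thus lay between the EpoR-null libraries at this gene, with 11 reads and a 95% Poisson interval of 0.237 to 0.851 CPM. It also stood apart in tissue markers: the summed level of 6 erythroid genes was 43.9 CPM in it and 600.4 to 1688 CPM in the other 4 libraries, and that of 6 endothelial genes was 11.9 CPM in it and 125 to 275 CPM in the others. The 6 neural tube markers (Sox1, Sox2, Sox3, Pax6, Nes and Hes5) were detected in all samples and summed to 1358 to 1566 CPM in the controls and 1201 to 1417 CPM in EpoR-null. None of the tested marker genes of any tissue passed the test between EpoR-null and controls. Median log2 fold changes were 0.93 (erythroid), 0.28 (endothelial), 0.95 (somite and mesoderm), 0.65 (neural crest), 0.61 (surface ectoderm), 0.25 (notochord and gut endoderm) and -0.14 (neural tube). SEs were large in the erythroid and endothelial genes, for example 1.09 for Hbb-y at a log2 fold change of 1.45. Not passing therefore does not show equal tissue content. The part of these markers in the results below was not tested, and the main counts are also given without the heterozygote-labelled library. In bulk tissue, fewer cells of a type and less RNA per cell cannot be told apart.

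More of the 42 listed DNA repair and checkpoint genes fell than rose in EpoR-null neural tubes. Of the 42 genes, 10 fell and 1 rose (edgeR exact test, adjusted p below 0.05), and 35 had a negative log2 fold change. Over all genes tested the same test called 5.49% lower and 1.81% higher, and 5569 of 12703 had a negative log2 fold change. Those that fell were Brca1, Brca2 and Blm of homologous recombination, Rad50 of the MRN complex, Fanca, Fancd2 and Fancm of the Fanconi anemia pathway, and the checkpoint genes Mdc1, Topbp1 and Clspn. Ercc1, of nucleotide excision repair, rose. The median log2 fold change of the 42 genes was -0.20, while that of all genes tested was 0.06. Together the 42 genes made up 3678, 3697 and 3764 CPM in the controls and 2916 and 3147 CPM in EpoR-null. Both EpoR-null samples lay below all 3 controls in 23 of the 42 genes and above them in 2, against 22.1% and 21.2% of all genes tested. The groups overlapped in the other 17, and in 7201 of the 12703 genes tested.

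**Figure D1:**
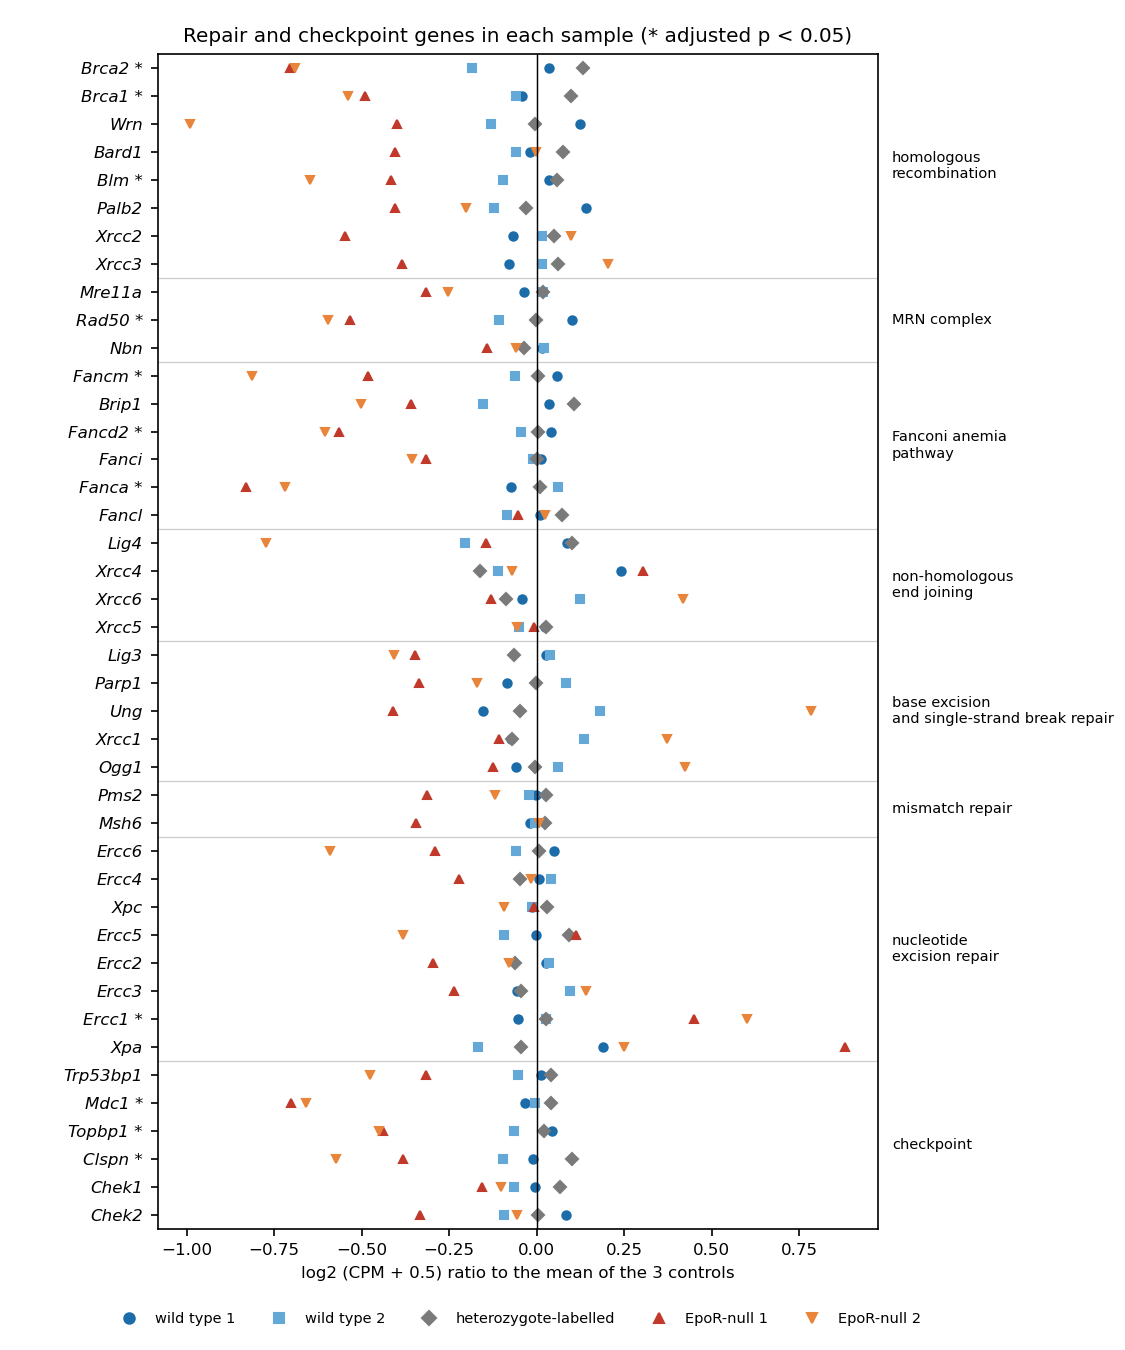
Log2 ratio of each sample's level to the mean of the controls (x axis) for the 42 genes, 1 gene per line and grouped by pathway (y axis). Each point is 1 sample, 0.5 was added to each CPM, and an asterisk beside a gene marks an adjusted p below 0.05 in the exact test. The EpoR-null points lie to the left of the control points in most recombination, MRN, Fanconi anemia and checkpoint genes and overlap with them in 12 of the 19 genes of the other pathways.

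By pathway, all 10 genes that fell in the exact test belonged to the 23 genes of homologous recombination, the MRN complex, the Fanconi anemia pathway and the checkpoint, whose median log2 fold change was -0.44 and of which all 23 had a negative value. None of the 19 genes of end joining, base excision, mismatch and nucleotide excision repair fell in the exact test, 1 rose, and their median was -0.05. The first set joins the pathways in which a gene fell and the second those in which none did, so this split follows the calls. The difference between these sets was not tested. Of the further genes of the same pathways, given at the end, 2 of 46 and 1 of 48 fell. The first set also had longer transcripts, with a median of 5153 bases against 3578, a difference taken up further on. With both p below 0.001 and adjusted p below 0.05 required, 8 of the 42 genes and 606 genes in all remained. The 8 were Blm, Brca1, Brca2, Fanca, Fancd2, Fancm, Mdc1 and Rad50. The calls depended on the test and on single libraries. The quasi-likelihood F-test of edgeR called 0 of the 42 genes and 0 genes in all (lowest adjusted p 0.0590). In it and in the exact test, 18 of the 42 had an unadjusted p below 0.05. So had 3052 and 2515 of the 12703 genes tested. DESeq2 called 17 of the 42 and 1737 genes in all. Among the 17 were Lig3 of base excision repair and Ercc6 of nucleotide excision repair, both lower. When the trend of each sample on transcript length and GC content was removed, described further on, 1 of the 42 genes passed, Fanca. Leaving out wild type replicate 1, wild type replicate 2 or the heterozygote-labelled library left 2, 3 and 2 calls. Over all genes tested, these fits called 115, 307 and 243. Without EpoR-null replicate 1 or 2, the median log2 fold change of the 42 genes was -0.19 or -0.34. Fanca and Mdc1 passed in each of the 5 exact tests with 1 library left out. In the tests without an EpoR-null replicate, the spread came from the controls alone and the lone EpoR-null sample was assumed to vary like them.

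In homologous recombination, 3 of 8 genes fell and all 8 had a negative log2 fold change (median -0.41). The pathway summed to 460.2, 430.2 and 482 CPM in the controls and 326 and 340.4 CPM in EpoR-null. In what follows, values in the controls are in the order wild type replicate 1, wild type replicate 2 and heterozygote-labelled library, and EpoR-null values in the order replicate 1 and replicate 2. The position of each gene that passed is given on the build GRCm38 from GENCODE M21. Brca2 (chr5:150522630-150570329, plus strand), a tumor suppressor needed for repair by homologous recombination, was at 80.3, 68.9 and 86.0 CPM in the controls and 47.9 and 48.4 CPM in EpoR-null. Every EpoR-null value was below every control value and the log2 fold change was -0.70 (SE 0.16, adjusted p = 0.00122). Brca1 (chr11:101488764-101551955, minus strand), which promotes the resection of broken ends and brings Brca2 to them, was at 113, 112 and 125 CPM in the controls and 82.7 and 80.0 CPM in EpoR-null. The groups were again separate, and the log2 fold change was -0.52 (SE 0.13, adjusted p = 0.00518). Blm (chr7:80454733-80535119, minus strand), the helicase that dissolves crossed-over recombination intermediates, was at 117, 107 and 119 CPM in the controls and 85.5 and 72.7 CPM in EpoR-null. Its groups did not overlap, with EpoR-null replicate 2 the lowest of the 5 samples, and its log2 fold change was -0.53 (SE 0.15, adjusted p = 0.0115). None of these 3 genes shares annotated exon bases with another gene.

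The other 5 recombination genes did not pass the test. Wrn, the helicase lost in Werner syndrome, was at 24.9, 20.8 and 22.7 CPM in the controls and 17.2 and 11.2 CPM in EpoR-null. Its EpoR-null values were both below the controls, and its log2 fold change of -0.69, close to that of Brca2, had an SE of 0.28 and an adjusted p of 0.127 in the exact test. Palb2, which bridges Brca1 and Brca2, had both EpoR-null values below the controls (log2 fold change -0.30, adjusted p 0.457). Bard1, the partner of Brca1 (-0.19), and the recombination genes Xrcc2 (-0.19) and Xrcc3 (-0.06) overlapped between groups. Xrcc3, with the shortest transcript of the pathway, was at 23.8, 25.5 and 26.3 CPM in the controls and 19.2 and 29.1 CPM in EpoR-null, where EpoR-null replicate 1 was the lowest and replicate 2 the highest of all samples.

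All 3 genes of the MRN complex had both EpoR-null values below the controls, and 1 of them fell. Over all genes tested, 22.1% had both EpoR-null values below the controls and 5.49% fell. Rad50 (chr11:53649519-53707319, minus strand), the ATPase that tethers broken ends, was at 58.0, 50.1 and 53.9 CPM in the controls and 37.2 and 35.6 CPM in EpoR-null. All 3 controls were well above both EpoR-null samples, and the log2 fold change was -0.57 (SE 0.16, adjusted p = 0.0120). Mre11a, the nuclease of the complex and its most abundant member in CPM, was at 65.0, 67.5 and 67.4 CPM in the controls and 53.4 and 55.8 CPM in EpoR-null. Its groups were separate but closer, with a log2 fold change of -0.29 (SE 0.14, adjusted p = 0.220). Nbn, which encodes Nbs1 and has the shortest transcript of the 3 genes, was at 57.7, 57.9 and 55.6 CPM in the controls and 51.7 and 54.7 CPM in EpoR-null. These values nearly touch, and the log2 fold change of -0.10 did not pass the test (adjusted p 0.751, edgeR exact test).

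The Fanconi anemia pathway had 3 falls among 6 genes and a median log2 fold change of -0.51, the lowest of the 8 pathways. Fanca (chr8:123268300-123318576, minus strand), a subunit of the core complex that ubiquitinates Fancd2 and Fanci, was at 50.2, 55.2 and 53.3 CPM in the controls and 29.5 and 31.9 CPM in EpoR-null. The 3 controls were close to each other, both EpoR-null samples were far below them, and the log2 fold change, the most negative of the 42 genes, was -0.78 (SE 0.16, adjusted p = 0.000145). Its annotated exons share 10.5% of their bases with Zfp276 on the opposite strand, and whether the counting used strand is not given in the sources used here. Fancd2 (chr6:113531682-113597017, plus strand), the substrate that is ubiquitinated and clamps DNA at the crosslink, was at 55.6, 52.3 and 54.2 CPM in the controls and 36.3 and 35.3 CPM in EpoR-null. Its groups did not overlap and the samples within each were close (log2 fold change -0.59, SE 0.15, adjusted p = 0.00373). Fancm (chr12:65075603-65132058, plus strand), the translocase that recruits the core complex to stalled forks, was at 53.5, 49.2 and 51.5 CPM in the controls and 36.6 and 29.1 CPM in EpoR-null. The EpoR-null samples were both lower, replicate 2 more so, and the log2 fold change was -0.65 (SE 0.18, adjusted p = 0.0110).

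Fanci, the partner of Fancd2 and the most abundant of the 6 genes in CPM, was at 56.8, 56.0 and 56.4 CPM in the controls and 45.2 and 44.0 CPM in EpoR-null. All 3 controls lay above both EpoR-null samples, yet the log2 fold change of -0.34 had an adjusted p of 0.143. Brip1, a helicase that binds Brca1, was likewise below the controls in both EpoR-null samples (-0.44, adjusted p 0.184). Fancl, the ubiquitin ligase of the core complex and the shortest transcript here, was at 20.5, 19.1 and 21.4 CPM in the controls and 19.5 and 20.6 CPM in EpoR-null. In Fancl the groups overlapped, with a log2 fold change of -0.01.

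Of 6 checkpoint genes, 3 fell, and the median log2 fold change was -0.42. Mdc1 (chr17:35841515-35859670, plus strand), the adaptor that reads phosphorylated histone H2AX and spreads the signal along chromatin, was at 266, 271 and 279.9 CPM in the controls and 167 and 172 CPM in EpoR-null. The control values lay close together, and both EpoR-null samples were far below them. Its adjusted p was the lowest of the 42 genes (log2 fold change -0.68, SE 0.13, adjusted p = 6.63e-05). Topbp1 (chr9:103305215-103350428, plus strand), the activator of the checkpoint kinase of stalled forks, was at 306, 283 and 301 CPM in the controls and 219 and 217 CPM in EpoR-null. The EpoR-null replicates were nearly equal and lay below every control (log2 fold change -0.45, SE 0.13, adjusted p = 0.0214). Clspn (chr4:126556935-126593903, plus strand), which encodes claspin, the adaptor that presents Chek1 to its activating kinase, was at 163, 154 and 176 CPM in the controls and 126 and 110.1 CPM in EpoR-null. These groups were separate too, and Clspn had a log2 fold change of -0.48 (SE 0.15, adjusted p = 0.0279).

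Trp53bp1, which protects broken ends from resection and has the longest checkpoint transcript, was at 249, 238 and 254 CPM in the controls and 198 and 177 CPM in EpoR-null. Both EpoR-null samples were below the controls, but the log2 fold change of -0.40 (SE 0.14) had an adjusted p of 0.0648. Annotated exons of Trp53bp1 share 15.0% of their bases with Tubgcp4. Chek2, the kinase that acts after double-strand breaks, was at 39.1, 34.5 and 37.0 CPM in the controls and 29.1 and 35.5 CPM in EpoR-null. The highest EpoR-null value exceeded the lowest control (log2 fold change -0.19, adjusted p 0.623). Chek1, the kinase that restrains entry into mitosis, had a log2 fold change of -0.13, with both EpoR-null samples slightly below the controls.

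None of the 4 end joining genes passed the exact test in either direction, at an adjusted or unadjusted p below 0.05 (and 0 in DESeq2). EpoR-null and control samples overlapped in all 4, as they did in 7201 of the 12703 genes tested. Over all genes tested, the exact test called 5.49% lower and 1.81% higher. The pathway summed to 164, 162 and 161 CPM in the controls and 156 and 171 CPM in EpoR-null. Xrcc5, which encodes the Ku80 subunit that caps broken ends, was at 75.2, 71.3 and 75.3 CPM in the controls and 73.5 and 71.1 CPM in EpoR-null. EpoR-null replicate 1 lay within the range of the controls and replicate 2 just below it, and the log2 fold change was -0.03 (SE 0.13). Xrcc6, the Ku70 subunit, had 59.1, 66.4 and 57.2 CPM in the controls and 55.6 and 81.4 CPM in EpoR-null, with EpoR-null replicate 1 the lowest and replicate 2 the highest sample. Lig4, the ligase of the pathway and its longest transcript, was at 22.2, 18.0 and 22.4 CPM in the controls and 18.8 and 12.0 CPM in EpoR-null. In Lig4 only EpoR-null replicate 2 was below all controls, and the log2 fold change was -0.44 with an SE of 0.29 (adjusted p 0.435). Xrcc4, the scaffold of Lig4, was the least abundant of the 42 genes per length (log2 fold change 0.14).

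Base excision and single-strand break repair had no call among 5 genes in the exact test, with 1 (Lig3) at an unadjusted p below 0.05, and 1 call in DESeq2. Lig3, the ligase that seals nicks with Xrcc1, was at 124, 125 and 117 CPM in the controls and 95.8 and 91.9 CPM in EpoR-null. Both EpoR-null samples were below the controls, and its adjusted p of 0.05003 just missed the threshold (log2 fold change -0.38, SE 0.13). Of its annotated exon bases, 25.1% are shared with Rffl on the opposite strand. Parp1, the sensor of nicks that builds poly(ADP-ribose) chains, was the most abundant of the 42 genes, at 599, 672 and 634 CPM in the controls and 503 and 564 CPM in EpoR-null. The EpoR-null samples were below all controls, with a log2 fold change of -0.25 (SE 0.15, adjusted p 0.348). Ogg1, which removes oxidized guanine, was at 11.1, 12.1 and 11.5 CPM in the controls and 10.6 and 15.7 CPM in EpoR-null. Its EpoR-null samples lay on opposite sides of the controls. The same held for Xrcc1, the scaffold of the pathway (log2 fold change 0.15), and for Ung, which removes uracil, at 52.7, 66.5 and 56.8 CPM in the controls and 44.0 and 101 CPM in EpoR-null (log2 fold change 0.31, SE 0.37). In Ung the EpoR-null samples were the lowest and the highest of the 5.

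Neither of the 2 mismatch repair genes passed the exact test, 0 of them had an unadjusted p below 0.05, and 0 passed in DESeq2. Msh6, which recognizes mispaired bases, was at 263, 265 and 271 CPM in the controls and 209.7 and 267 CPM in EpoR-null. EpoR-null replicate 1 was low and replicate 2 lay among the controls (log2 fold change -0.16, adjusted p 0.647). Pms2, the endonuclease that nicks the new strand, was at 41.4, 40.8 and 42.2 CPM in the controls and 33.3 and 38.1 CPM in EpoR-null. Both EpoR-null samples were below the controls, and the log2 fold change was -0.21 (adjusted p 0.509).

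Nucleotide excision repair had the only gene that rose. Ercc1 (chr7:19344778-19356524, plus strand), which with Ercc4 forms the nuclease that cuts 5′ of the damage and also acts in crosslink repair, was at 23.5, 24.9 and 24.9 CPM in the controls and 33.5 and 37.3 CPM in EpoR-null. Both EpoR-null samples were above all controls, and the log2 fold change was 0.54 (SE 0.18, adjusted p = 0.0383). Its exons share 3.41% of their bases with Cd3eap. Ercc4, the catalytic partner, had a log2 fold change of -0.12 and overlapped between groups. Xpa, which verifies the damage and has the shortest transcript of the 42 genes, was at 6.69, 5.12 and 5.62 CPM in the controls and 11.1 and 7.01 CPM in EpoR-null. Both EpoR-null samples were above the controls, but by little in replicate 2, and the log2 fold change of 0.64 had an SE of 0.36 (adjusted p 0.312).

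Ercc6, the remodeller that starts repair at stalled RNA polymerase and the longest transcript of the pathway, was at 49.5, 45.9 and 48.1 CPM in the controls and 39.0 and 31.6 CPM in EpoR-null. Both EpoR-null samples were below the controls (log2 fold change -0.44, adjusted p 0.119). Ercc3, a helicase of the transcription factor TFIIH, was at 63.3, 70.4 and 63.9 CPM in the controls and 55.8 and 72.7 CPM in EpoR-null. EpoR-null replicate 1 was lowest and replicate 2 highest, for a log2 fold change of -0.03. The other TFIIH helicase Ercc2 (-0.19), the nuclease Ercc5 (-0.12) and the damage sensor Xpc (-0.05) had log2 fold changes near 0. Ercc2 had both EpoR-null samples below the controls, while Ercc5 and Xpc overlapped.

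Per kilobase of transcript, levels in the controls spanned from 164 CPM for Parp1 to 1.90 CPM for Xrcc4. After Parp1 came Msh6 (62.6 CPM per kilobase), Topbp1 (56.8), Xrcc1 (47.0), Mdc1 (37.1) and Clspn (32.7), so that the 3 checkpoint genes that fell were among the 6 with the highest level on this scale. Of the recombination genes, Blm stood at 23.9, Brca1 at 17.7 and Brca2 at 7.31 CPM per kilobase. In the heterozygote-labelled library, 18 of the 42 genes were above both wild type samples, 18 between them and 6 below. Over all 12703 genes tested, 4508 (35.5%) were above both, 4363 between and 3832 below. Of the 10 genes that fell in EpoR-null, 5 were above both wild type samples in this library, 5 between them and 0 below. The calls themselves used this library as a control. It is 1 library, and its difference from wild type was not tested. Without it, 2 of the 42 genes (Fanca and Mdc1) and 243 genes in all were called, and the median log2 fold change of the 42 was -0.21.

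The EpoR-null replicates differed in some of the shorter genes. In 7 of the 42 genes (Xrcc1, Xrcc2, Xrcc3, Xrcc6, Ung, Ogg1 and Ercc3), replicate 1 lay below and replicate 2 above all controls, a pattern found in 10.9% of all genes tested. The reverse pattern occurred in 1 gene, Ercc5, and in 9.73% of all genes tested. Among the 21 genes with longer transcripts (4485 to 10724 bases) both replicates were lower, with a median log2 ratio to the control mean of -0.40 in replicate 1 and -0.57 in replicate 2. Among the 21 with shorter transcripts (1241 to 4347 bases) these medians were -0.14 and 0.01.

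The differences followed transcript length, taken as the longest annotated transcript of each gene. All 10 genes that fell were among the 21 longer ones, whose median log2 fold change was -0.45. Of these 21 genes, 18 had both EpoR-null samples below all controls. Over all genes tested, of every length, 22.1% did, and the share at matched length was not computed. Of the 21 shorter genes, 0 fell, 1 rose, and the median was -0.05. Across the 42 genes, log2 fold change and length had a Spearman correlation of -0.80, and -0.84 with coding length in place of transcript length. A trend in the same direction ran through the whole table, with a Spearman correlation of -0.63 over 12586 genes with a known length. Genes of 1 set of libraries share the depth and quality of those libraries, so these correlations carry no p. The slope on a log2 scale of length was -0.38 per doubling in the 42 genes and -0.24 in all genes.

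**Figure D2:**
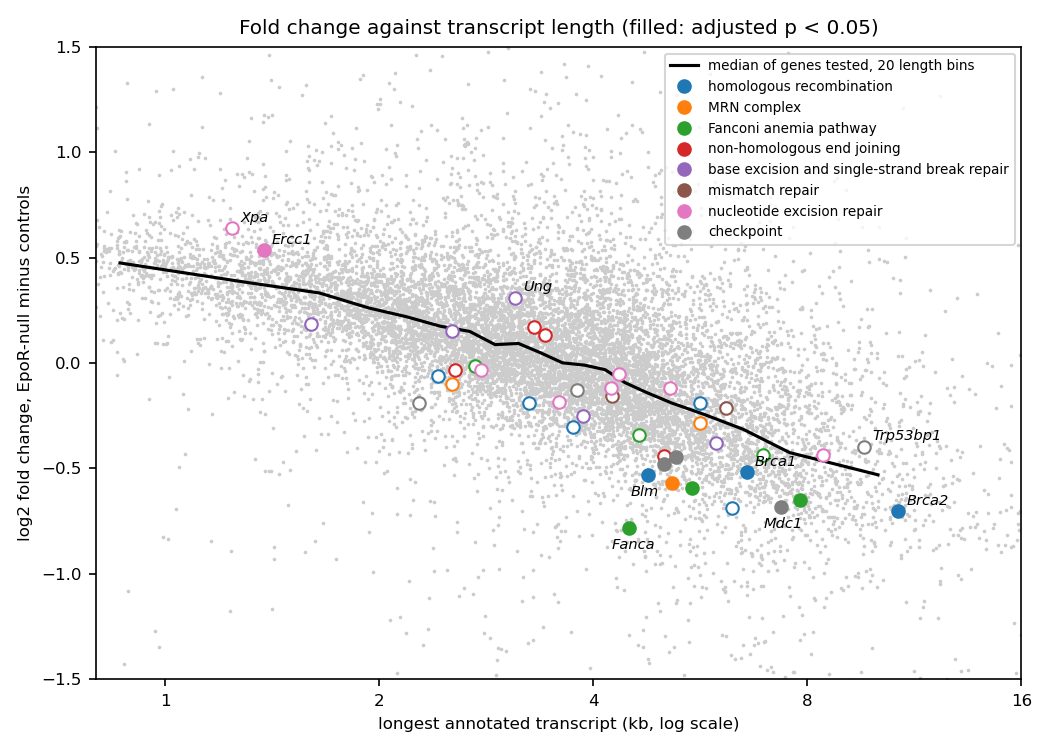
Log2 fold change of EpoR-null against controls (y axis) by length of the longest annotated transcript in kilobases (x axis, log scale) for the 42 genes, colored by pathway and filled where the exact test passed, and for all genes tested in gray. The black line is the median of all genes in 20 length bins, 375 genes lie outside the axes, and most of the 42 genes lie below the line, Fanca furthest.

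Length quintiles of all genes tested give the background at matched length. In the quintile from 5430 bases up, 22.4% of all genes fell, and 5 of the 13 genes of the DNA repair and checkpoint list did (Brca1, Brca2, Fancd2, Fancm and Mdc1). In the next quintile, from 4010 to 5427 bases, 3.26% of all genes fell and 5 of 11 listed genes did (Blm, Rad50, Fanca, Topbp1 and Clspn). In the 3 shorter quintiles 0.834% or less of all genes fell, and 0 of 18 listed genes. At the short end, up to 2061 bases, 7.15% of all genes rose, and so did 1 of 3 listed genes, Ercc1. The median log2 fold change of the listed genes was -0.44 in both long quintiles, where all genes had -0.36 and -0.11.

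Set against the running median of all genes at their own length, 31 of the 42 genes lay below the trend, and the median distance of the 42 from it was -0.16. All 10 genes that fell were below it, but a call as lower itself selects genes with low values. Fanca lay furthest (-0.68 on the log2 scale), followed by Wrn (-0.39), Chek2 (-0.39), Blm (-0.39), Rad50 (-0.38) and Fancd2 (-0.37). Of the genes that fell, Brca2, the longest, was nearest to the trend (-0.17), followed by Brca1 (-0.19). Ercc1 (0.16) and Trp53bp1 (0.12) were above it.

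**Figure D3:**
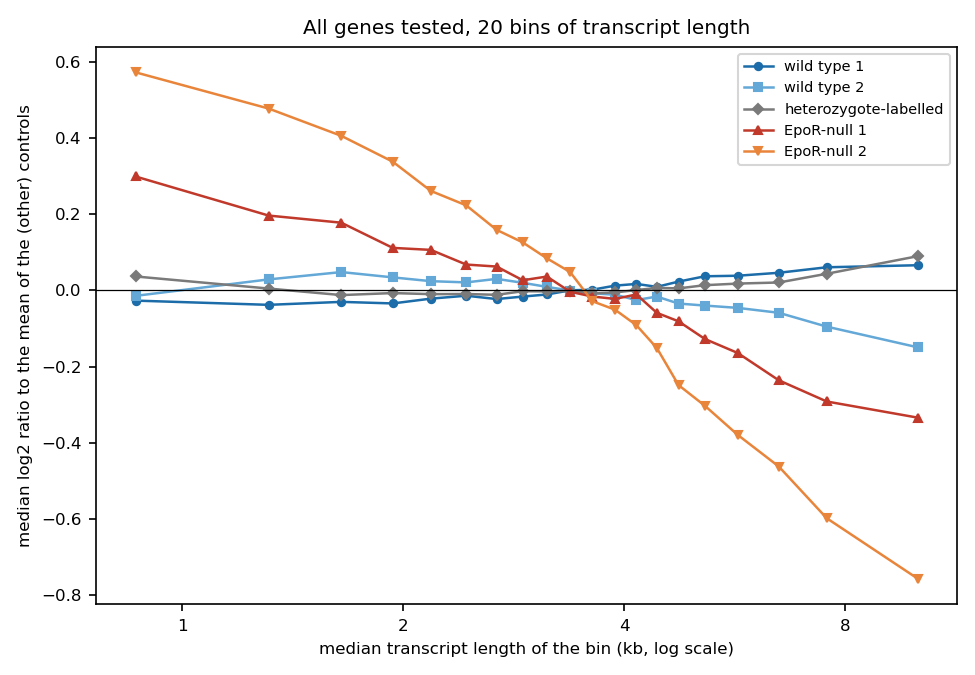
Median log2 ratio of each sample's level to the mean of the other controls, or of all controls for EpoR-null (y axis), in 20 bins of transcript length in kilobases (x axis, log scale) over all genes tested. Each line is 1 sample: the lines of both EpoR-null samples slope down, that of replicate 2 more steeply, and those of the controls stay nearer to 0.

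The trend was present in each EpoR-null sample. Over the 42 genes, the Spearman correlation of length with the log2 ratio to the controls was -0.54 in EpoR-null replicate 1 and -0.79 in replicate 2, and over all genes it was -0.37 and -0.67. Each control set against the other controls gave 0.28, -0.32 and 0.34 over the 42 genes and 0.21, -0.18 and 0.07 over all genes. Length trend and genotype coincide in these 5 libraries and cannot be told apart.

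To compare the genes at equal length and base composition, the trend of each sample on transcript length and GC content was removed by offsets, and the likelihood-ratio test of edgeR was run without and with them. Without offsets, 12 of the 42 genes passed, the 11 above and Lig3. With offsets 1 passed, Fanca, which kept a log2 fold change of -0.74 (adjusted p 0.00537), and the same test called 1.18% of all genes lower. The log2 fold change became smaller in size in 32 of the 42 genes, 33 had a negative value, and the median moved to -0.15. Blm (-0.36), Rad50 (-0.35), Fancd2 (-0.34), Mdc1 (-0.34) and Clspn (-0.33) had intermediate values with offsets. Brca2 went from -0.70 to -0.12, Brca1 to -0.16 and Ercc1 from 0.54 to 0.14. Trp53bp1 turned from -0.40 to 0.07. None of the genes named in these 3 sentences passed the test with offsets.

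**Figure D4:**
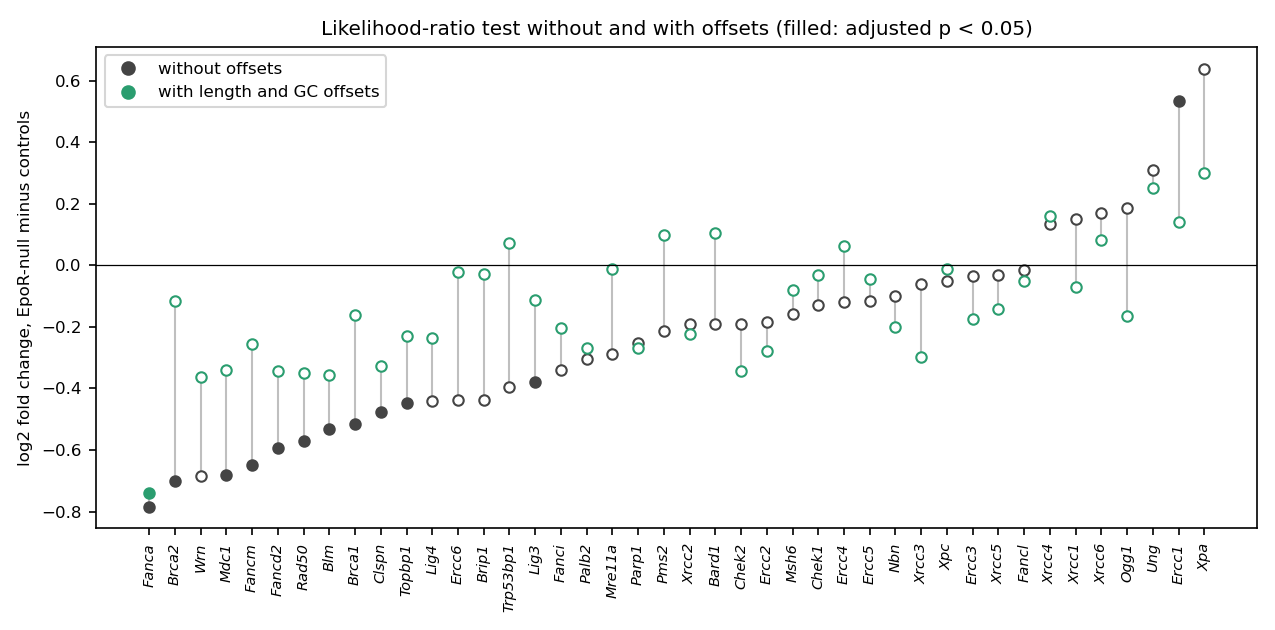
Log2 fold change of EpoR-null against controls (y axis) for the 42 genes (x axis, ordered by their value without offsets), without (dark points) and with (green points) offsets for transcript length and GC content in the likelihood-ratio test. Filled points passed the test, and a line joins the pair of values of a gene: most lie closer to 0 with offsets, Brca2 by the most among the genes that fell, while Fanca stayed near -0.74.

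The rest of the repair machinery gave few calls. Of 96 further genes of the same pathways, 94 were tested, 3 fell (3.19%, against 5.49% of all genes tested) and 0 rose, with a median log2 fold change of 0.06. Among the 46 genes of recombination, the Fanconi anemia pathway and the checkpoint, 2 fell and the median was -0.02, while 1 of the 48 genes of the other pathways fell and their median was 0.12. The 12 further Fanconi anemia genes had a median of 0.05 and the 18 further checkpoint genes one of -0.07, where the listed genes of these pathways had -0.51 and -0.42. Their median transcript length was 3361 bases, against 4416 bases for the 42 genes. The 3 that fell were Rif1, a partner of Trp53bp1 in end protection (log2 fold change -0.95, adjusted p = 0.000612), Prkdc, the DNA-dependent protein kinase of end joining (log2 fold change -0.68, adjusted p = 0.0491), and Wdr48, a cofactor of the enzyme that deubiquitinates Fancd2 (log2 fold change -0.38, adjusted p = 0.0442), all with the edgeR exact test. Rif1 and Prkdc have long transcripts, of 8509 and 12647 bases. That of Wdr48 has 3845 bases, in the length quintile where 0.834% of all genes fell.

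Genes of the cell cycle were examined because many repair genes are expressed in S and G2 phases. Of 15 genes of S phase and replication, 0 passed the exact test and 0 had an unadjusted p below 0.05. Their median log2 fold change was 0.08, and 14 overlapped between groups, as did 7201 of the 12703 genes tested. Of 15 genes of G2 and mitosis, 2 fell, the kinetochore genes Cenpe (log2 fold change -0.74, adjusted p = 0.0311) and Cenpf (log2 fold change -0.72, adjusted p = 0.0119), and the median was -0.12. In this list 6 genes had an unadjusted p below 0.05, and 9 had both EpoR-null samples below all controls. Over all genes tested, 2515 of 12703 had such a p in the exact test, and 22.1% had both EpoR-null samples below all controls. Cenpe and Cenpf have long transcripts, of 7910 and 11130 bases, in the length quintile where 22.4% of all genes fell. The G2 and mitosis genes summed to 4202 to 4436 CPM in the controls and to 3773 and 3481 CPM in EpoR-null. Those of S phase summed to 5663 to 6134 CPM in the controls and to 5244 and 6994 CPM in EpoR-null.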

How the data were processed

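Neural tube RNA of 2 wild type, 1 heterozygote and 2 EpoR-null samples was analysed, with groups and replicate numbers taken from the labels. The authors deposited raw read counts per gene, without normalization. Per the labels' processing notes, reads were trimmed with Trimmomatic 0.32, aligned to mm9 with TopHat2 2.1.0 and counted with HTSeq 0.6.1, while the methods of the study name a human build and another Tophat version. The gene annotation and strand setting are not given in the sources used here. By default HTSeq leaves out reads that fit several genes or places, and its effect on overlapping genes was not tested.

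The 42 genes, the other lists, the motifs and the length analysis were chosen with earlier results of these data known. The fits were run in edgeR 4.0.16 under R 4.3.3. Genes above 1 CPM in at least 2 samples were tested (12703 of 23284). As in the study, TMM normalization and the exact test were used, here with tagwise dispersions, comparing EpoR-null with the pooled wild type and heterozygote samples, and p-values were adjusted by Benjamini-Hochberg over all genes tested (threshold 0.05). The common biological coefficient of variation was 0.232. CPM used TMM-scaled library sizes, and log2 ratios of single samples had 0.5 added to each CPM. Fold changes are fitted values with SE from the negative binomial model. Depth was 19316126 to 41169218 reads on genes, and counting intervals cover counting error only.

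Transcript length, GC content and exon overlaps are those of GENCODE M21 (GRCm38), matched by symbol for 99.1% of tested genes (12586). Loess offsets had a span of 0.5. Values in every sample are given for each gene that passed, and for the most abundant, shortest and longest gene of each pathway; Wrn, Xrcc6 and Ung were added after their values were seen. Alternatives were the quasi-likelihood and likelihood-ratio tests of edgeR, DESeq2 1.42.0, other size factors and filters, a stricter threshold, a replicate block and each sample left out. The fits were tested on simulated counts with known changes.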

Additional observations from a re-analysis of the deposited data

How the results depend on the processing

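Over the alternatives, the median log2 fold change of the 42 genes stayed negative, and it moved beyond the spread between EpoR-null samples only without EpoR-null replicate 2. Leaving out 1 library at a time gave medians from -0.34 to -0.19, 2 to 21 of the 42 genes called and 115 to 3670 genes in all, and Spearman correlations with length from -0.81 to -0.54. The quasi-likelihood F-test called 0 genes in all and 0 of the 42, with adjusted p from 0.0590 to 0.0883 for the 11 genes of the exact test. DESeq2 called 1737 genes and 17 of the 42, and the threshold of p below 0.001 left 606 genes. With offsets for length and GC, the likelihood-ratio test called 170 genes and 1 of the 42, against 12 of the 42 without offsets. The quasi-likelihood F-test with offsets called 0 genes and 0 of the 42, both without and with the replicate block. The cause of these differences between tests was not tested.

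The labels do not say that replicate numbers mark litters, and with 2 pairs the samples share only a number. Differences between replicates 1 and 2 had a Pearson correlation of 0.43 between wild type and EpoR-null over 12703 genes. The quasi-likelihood F-test with the replicate block called 695 genes and 9 of the 42, those of the exact test other than Topbp1 and Ercc1, with a lowest adjusted p of 0.0410.

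Direction changed only in genes that did not pass. With 1 library left out at a time, log2 fold changes ranged from -0.40 to 0.17 for Xrcc3, -0.25 to 0.10 for Ercc3 (0.016 without wild type replicate 2), -0.060 to 0.023 for Fancl and -0.14 to 0.40 for Ogg1. Of these, Xrcc3 and Ercc3 were highest without EpoR-null replicate 1, Fancl without the heterozygote-labelled library, and Ogg1 was lowest without EpoR-null replicate 2. With offsets, in the likelihood-ratio test, the quasi-likelihood F-test and the latter with the replicate block, Ogg1 was -0.16, -0.17 and -0.20, Pms2 0.099, 0.099 and 0.040, and Trp53bp1 0.073, 0.073 and 0.044. Of the other values of named genes under the alternatives, 318 kept their side of the threshold, 74 lost and 14 gained a call.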
